A study of Mus musculus with 12 samples.

Results

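The D-type cyclins, their kinases and the inhibitors of those kinases were followed through the pellet cultures as 10 genes taken by symbol, which are Ccnd1, Ccnd2, Ccnd3, Cdk4, Cdk6, Cdkn1a, Cdkn1b, Cdkn2a, Cdkn2b and Cdkn2c. They were 10 of 28244 genes listed and all 10 passed the filter on low values, which left 17674 genes to test. Primary progenitors of the cartilage at the heads and condyles of femur and tibia came from C57/BL6 pups aged 5 or 6 days, were pelleted, and spent 7 days in chondrogenic medium before the switch to osteogenic medium. Pellets were harvested at D7, D8, D10 and D28, after 0, 1, 3 and 21 days of osteogenic medium, with 3 libraries of poly-adenylated RNA at each time point. The cells carried no transgene and every group shared the strain, the isolation method and the chondrogenic phase, with medium replaced every 4 days. Nothing in the sources used here says that the replicates came from separate litters or isolations, so the p-values measure the spread between these libraries, which may be technical. The labels describe more than 1 stranded library kit without saying which libraries each served, and a part of the kit in the differences between time points was not tested.

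D-type cyclins bind CDK4 and CDK6 when growth signals reach a cell, and the active kinases phosphorylate the retinoblastoma protein so that E2F factors can switch on the genes of S phase. INK4 proteins, the products of Cdkn2a, Cdkn2b, Cdkn2c and Cdkn2d, bind CDK4 and CDK6 and block them, whereas the Cip/Kip proteins p21 (Cdkn1a), p27 (Cdkn1b) and p57 (Cdkn1c) inhibit CDK2 complexes and also bind cyclin D complexes. In the growth plate, chondrocytes divide in columns under cyclin D control and leave the cycle as they become hypertrophic.

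Each value is on a log2 scale, the logarithm of an equalized read count to which 1 had been added, so a difference of 1 is close to a doubling. The equalization gave every library nearly the same set of sorted values, with a shared maximum of 20.92, and summed levels of 25529105 to 25530208 after removing the logarithm. Original library totals are therefore not kept, and the number of genes at 0, from 11055 to 12383 per library, is what remains of the depth. A level of 3 reads stood between 1.50 and 2.87, far under the lowest value of any of the 10 genes, which was 5.01. No pair of libraries held identical values. The labelled cartilage identity was checked against its markers: Col2a1, the main cartilage collagen, was at 20.92, the ceiling that the equalization gives to the top gene of a library, in every D7, D8 and D28 library and at 19.87 in every D10 library, so its level is not resolved near the top, and Sox9, the chondrocyte transcription factor, had means of 12.38, 12.11, 12.44 and 12.25 at D7, D8, D10 and D28. All 10 markers were above 0 in every library, but 7 of them fell at D10 against D7, from Acan, the aggrecan gene, by 1.17 (adjusted p = 0.0077, limma) to Matn3, a cartilage matrix gene, by 4.37 (adjusted p = 7.4e-10, limma).

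A gene was past the threshold when its Benjamini-Hochberg adjusted p from limma was under 0.05 and its log2 fold change was 1 or more in either direction, the fold used in the study. Ccnd3, Cdkn2a, Cdkn2b and Cdkn2c passed it in at least 1 comparison, whereas Ccnd1, Ccnd2, Cdk4, Cdk6, Cdkn1a and Cdkn1b never did. At D8 against D7 none of the 10 genes was past the threshold, where 7.04% of all tested genes were. There, 4 genes passed by the adjusted p alone in limma (21.0% of all tested genes did). An unadjusted p under 0.05 was reached by 5, and the study's own rule of an unadjusted p under 0.05 with the same fold gave 0. For these counts without adjustment no share over all tested genes was computed, so nothing is read from them. From D8 to D10 1 gene was past the threshold (9.66% of all tested genes) and 3 passed by the adjusted p alone (28.8%). At D10 against D7 the numbers were 3 (18.9%) and 8 (41.2%). From D10 to D28 they were 4 (27.5%) and 7 (52.4%), at D28 against D7 they were 2 (17.3%) and 5 (37.3%), and at D28 against D8 they were 3 (19.7%) and 7 (41.3%). With only 10 genes, these counts describe the set and do not set it apart from other genes. The comparisons reuse the same 12 libraries, so they are not independent of each other.

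**Figure D1:**
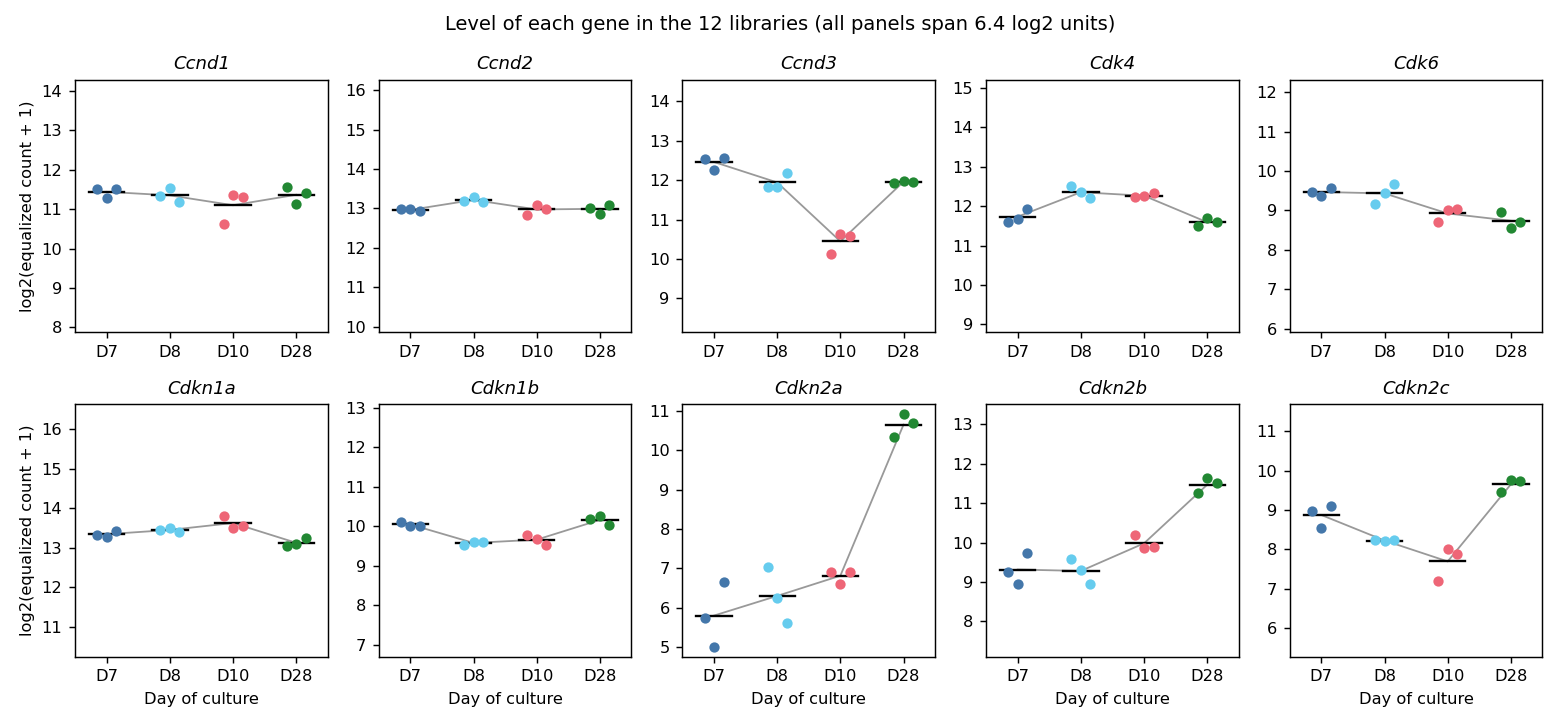
Levels of the 10 genes on the log2 scale (vertical axis, log2 of the equalized count plus 1) in the 12 libraries by day of culture (horizontal axis), with 1 point per library, a black bar at the mean of each time point and a grey line through the means. All panels span the same number of log2 units, so Ccnd3 is seen to dip at D10, from a mean of 12.46 to 10.45, and Cdkn2a to climb from 5.80 at D7 to 10.65 at D28.

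The promoters of the genes that moved most are shown first, so that the genes whose levels rose together can be compared. They are windows from 250 bases before to 50 bases after an annotated start, from RefSeq on GRCm38.p6, and 8 of the 10 genes had 1 or more windows, 12 in all. The motifs searched on both strands were CACGTG (E-box), TGACTCA (AP-1 site), TGACGT (shortened CRE), GGGCGG (GC box), the CCAAT box, the TATA box as TATAAA, E2F-type sites as TTTCGCG or with a different base as TTTGGCG, and a FOXO-type site as TGTTTAC, and capitals mark the matches. Among 32851 windows of the annotation, CACGTG was held by 7.15%, TGACTCA by 5.2%, TGACGT by 7.51%, GGGCGG by 35.7%, CCAAT by 37.4%, TATAAA by 13.6%, TTTCGCG by 0.849%, TTTGGCG by 1.56% and TGTTTAC by 3.65%. Cdkn2a has 2 transcripts that start apart, the upstream one encoding Arf and the downstream one Ink4a, and each has its window.
Cdkn2a, chr4:89294570-89294869, minus strand: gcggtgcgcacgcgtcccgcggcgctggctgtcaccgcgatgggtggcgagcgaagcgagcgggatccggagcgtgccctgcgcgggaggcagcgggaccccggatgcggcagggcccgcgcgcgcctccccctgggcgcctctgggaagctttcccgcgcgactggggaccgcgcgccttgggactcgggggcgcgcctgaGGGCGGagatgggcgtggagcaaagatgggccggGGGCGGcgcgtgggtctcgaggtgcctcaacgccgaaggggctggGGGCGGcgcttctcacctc
Cdkn2a, chr4:89282143-89282442, minus strand: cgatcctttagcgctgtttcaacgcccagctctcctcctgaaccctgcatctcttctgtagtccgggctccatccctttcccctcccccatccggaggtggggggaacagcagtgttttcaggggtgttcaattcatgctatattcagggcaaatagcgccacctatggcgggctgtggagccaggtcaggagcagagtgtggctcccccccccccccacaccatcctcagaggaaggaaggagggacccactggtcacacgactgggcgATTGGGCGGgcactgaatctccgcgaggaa
Cdkn2b, chr4:89310983-89311282, minus strand: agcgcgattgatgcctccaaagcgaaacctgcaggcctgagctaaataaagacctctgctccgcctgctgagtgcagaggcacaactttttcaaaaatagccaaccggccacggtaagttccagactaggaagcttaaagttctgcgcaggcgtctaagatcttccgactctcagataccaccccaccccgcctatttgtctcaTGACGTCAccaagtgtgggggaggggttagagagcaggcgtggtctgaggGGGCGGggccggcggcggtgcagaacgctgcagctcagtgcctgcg
Cdkn2c, chr4:109666707-109667006, minus strand: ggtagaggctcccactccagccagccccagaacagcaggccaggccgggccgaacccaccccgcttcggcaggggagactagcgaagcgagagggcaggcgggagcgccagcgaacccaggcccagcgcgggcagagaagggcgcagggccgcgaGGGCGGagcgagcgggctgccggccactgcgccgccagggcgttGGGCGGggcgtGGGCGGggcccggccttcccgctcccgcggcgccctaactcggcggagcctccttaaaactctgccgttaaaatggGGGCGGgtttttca
Cdkn2c, chr4:109665323-109665622, minus strand: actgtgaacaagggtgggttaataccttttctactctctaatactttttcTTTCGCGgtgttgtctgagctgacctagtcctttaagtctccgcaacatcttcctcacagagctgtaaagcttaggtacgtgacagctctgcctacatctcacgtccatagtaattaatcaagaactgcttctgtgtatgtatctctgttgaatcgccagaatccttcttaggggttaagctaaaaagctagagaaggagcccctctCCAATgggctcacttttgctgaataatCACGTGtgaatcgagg
Ccnd3, chr17:47504801-47505100, plus strand: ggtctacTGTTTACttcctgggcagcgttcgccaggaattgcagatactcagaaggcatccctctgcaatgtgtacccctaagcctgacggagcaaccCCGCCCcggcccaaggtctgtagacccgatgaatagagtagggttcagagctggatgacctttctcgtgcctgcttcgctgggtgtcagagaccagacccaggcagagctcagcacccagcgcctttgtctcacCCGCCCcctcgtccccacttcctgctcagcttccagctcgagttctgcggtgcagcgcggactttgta
Ccnd3, chr17:47593217-47593516, plus strand: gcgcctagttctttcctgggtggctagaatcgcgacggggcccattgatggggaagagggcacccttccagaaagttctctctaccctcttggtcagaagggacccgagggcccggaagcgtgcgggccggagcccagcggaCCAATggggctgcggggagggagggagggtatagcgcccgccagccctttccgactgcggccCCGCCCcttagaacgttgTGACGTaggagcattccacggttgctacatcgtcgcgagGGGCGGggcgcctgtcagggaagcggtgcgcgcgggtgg
The upstream Cdkn2a window held GGGCGG 3 times and none of the other motifs. In the downstream window a GGGCGG overlapped a CCAAT on the other strand. The Cdkn2b window held 1 GGGCGG and a pair of TGACGT matches on opposite strands that overlap in 1 run of capitals, at positions -46 and -44, with the start base as 0. GGGCGG occurred 4 times in the first Cdkn2c window and not in the second, which held the E-box, the CCAAT box and an E2F-type site once each. The last, TTTCGCG, was the one E2F-type match among the 12 windows. GGGCGG was the one motif present in at least 1 window of each of Cdkn2a, Cdkn2b, Cdkn2c and Ccnd3. It also occurred in windows of Cdk4, Cdkn1a and Cdkn1b, which never passed the threshold. The windows of Ccnd3 differed from each other, with TGTTTAC only in the first and TGACGT and CCAAT only in the second. A match is a stretch of letters and says nothing of binding.

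Ccnd3, the cyclin D3 gene (chr17:47505051-47599691, GRCm38, plus strand), went down to a minimum at D10 and came back by D28. Its levels were 12.54, 12.27 and 12.56 in the D7 libraries and 11.82, 11.82 and 12.18 at D8. At D10 they were 10.12, 10.63 and 10.58, and at D28 they were 11.93, 11.99 and 11.96. The D10 libraries lay below all others, and D8 and D28 overlapped each other below D7. Ccnd3 fell by 2.01 on the log2 scale from D7 to D10 (standard error 0.14, limma adjusted p = 3.5e-08), to a level 4.03-fold lower. Most of the fall came after D8, with a log2 fold change of -1.49 from D8 to D10 (adjusted p = 4.2e-06, limma), and the rise from D10 to D28 was 1.51 (adjusted p = 2.9e-07, limma). The first day of osteogenic medium gave a difference of -0.52 (95% interval -0.82 to -0.22), which passed by the adjusted p of 0.015 in limma and not by the fold. D28 stayed under D7 by a log2 difference of -0.50 (adjusted p = 0.010, limma), and between D28 and D8 the difference was 0.02 with an interval from -0.28 to 0.32. In a bulk pellet, fewer cells that express a gene and less of its RNA per cell cannot be told apart, here or in the results that follow.

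Ccnd1 and Ccnd2, the cyclin D1 and D2 genes, did not pass the threshold in any comparison. Ccnd2 (chr6:127125162-127152193, minus strand) was between 12.94 and 12.98 at D7 and between 12.84 and 13.10 at D10. Its D8 libraries, at 13.18, 13.29 and 13.17, were above every other library, with a difference of 0.25 over D7 that did not pass (standard error 0.10, limma adjusted p = 0.098). At D28 it differed from D7 by 0.03, with a 95% interval from -0.19 to 0.25. Ccnd1 (chr7:144929931-144939925, minus strand) had its lowest value, 10.61, in the first D10 library, while the other two D10 libraries, at 11.37 and 11.32, were within the D7 to D8 range of 11.18 to 11.55. The interval of the difference between D10 and D7 was -0.71 to 0.03 for Ccnd1, so a fall of the size seen in Ccnd3 lay outside it. That first D10 library also held the lowest value of Ccnd2, Ccnd3 and Cdkn2c, and without it the log2 fold change of Ccnd3 at D10 against D7 was -1.85 (adjusted p = 8.9e-08, limma) and that of Ccnd1 was -0.10.

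Within a library, a factor common to all its genes would leave the difference between genes unchanged. The equalization, which set the sorted values alike, was not such a factor, so these differences still rest on it. Ccnd3 minus Ccnd2 was -0.44, -0.71 and -0.37 log2 units in the D7 libraries and -2.71, -2.47 and -2.40 in the D10 libraries. The mean of this difference was -1.28 at D8 and -1.03 at D28, and no D10 library overlapped another time point. Per kilobase of exon, Ccnd3 made up 30.8% ± 1.8 of the summed D-type cyclin level at D7 and 22.4% ± 3.6 at D8, with the smallest share, 10.7% ± 0.40, at D10 and 24.2% ± 2.2 at D28 (SD, n = 3). Ccnd2 held 40.8%, 50.1%, 57.7% and 46.0% of that sum at D7, D8, D10 and D28, and Ccnd1 between 27.5% and 31.6% at each time point. Per kilobase Ccnd2 was the highest of these genes in every library, whereas Ccnd3 was above Ccnd1 within each D7 library and below it within each D10 and D28 library. The D28 order rests on the exon lengths, 8775 bases for Ccnd3 and 4709 for Ccnd1, since without them Ccnd3 was above Ccnd1 in every D28 library. Summed over the 3 genes and put back on the log2 scale, the level was between 13.92 and 14.05 at D7 and between 13.29 and 13.66 at D10.

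**Figure D2:**
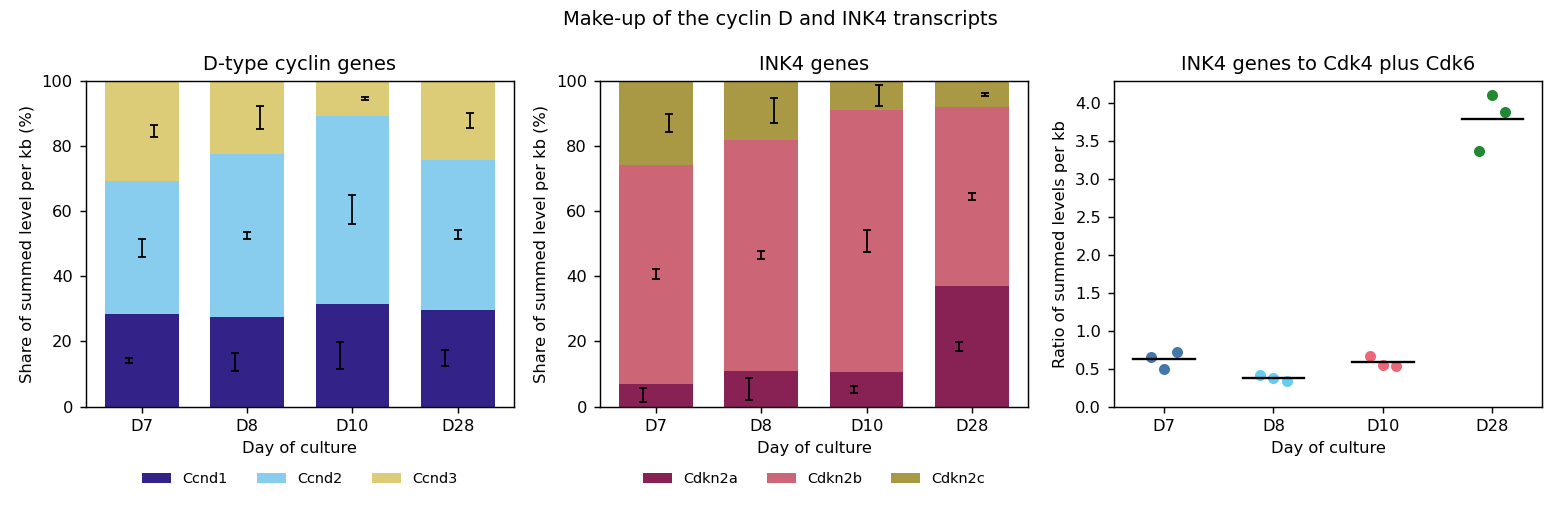
Stacked bars give the mean share (percent) of each gene in the summed level per kilobase of exon of the D-type cyclin genes (left) and of the INK4 genes (middle) by day of culture, with error bars of 1 SD over 3 libraries drawn inside each segment. The points at the right give, for each library, the summed INK4 level over the summed Cdk4 and Cdk6 level per kilobase, with a bar at the mean. The D28 libraries lie between 3.37 and 4.09 and the others between 0.339 and 0.723. Cdkn2a is the gene total, in which the Ink4a and Arf transcripts are not separated.

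The kinase genes differed in opposite directions at D10 against D7, and both were lower at D28 than at D8, without reaching the fold of the threshold in any comparison. Cdk4 (chr10:127063534-127067920, plus strand) was at 11.61, 11.67 and 11.93 in the D7 libraries and at 12.51, 12.35 and 12.20 at D8. It was at 12.22, 12.25 and 12.32 at D10 and at 11.50, 11.69 and 11.59 at D28. The D8 and D10 libraries were all above those of D7 and D28. By the adjusted p alone Cdk4 was higher at D8 than at D7, by 0.62 (standard error 0.11, limma adjusted p = 9.6e-04), and lower at D28 than at D10, with a log2 fold change of -0.67 (adjusted p = 1.0e-04, limma). At D28 against D7 its difference was -0.14, with an interval from -0.37 to 0.09. Of 6 genes that every cell uses, 2 were higher and 1 was lower by the adjusted p alone at D8 against D7, with a median of 0.30. At D10 against D7 4 of the 6 were higher by that measure and 0 lower, with a median of 0.72 beside 0.05 over all tested genes, and none of the 6 was past the fold in either comparison. Their summed level was 17.77 to 18.12 at D7, 18.08 to 18.43 at D8, 18.43 to 18.84 at D10 and 17.84 to 17.91 at D28, and their part in the Cdk4 difference was not tested.

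Cdk6 (chr5:3341485-3531008, plus strand), the other partner of the D-type cyclins, was at 9.46, 9.37 and 9.57 at D7 and at 9.16, 9.45 and 9.68 at D8. Its values were 8.72, 9.02 and 9.03 at D10 and 8.95, 8.55 and 8.71 at D28, and all of these lay below the D7 and D8 libraries. Against D7 it differed by -0.54 at D10 (standard error 0.15, limma adjusted p = 0.0083) and by -0.73 at D28 (adjusted p = 0.0012, limma). Against D8, D28 was lower by the adjusted p alone for both kinases, with a difference of -0.69 for Cdk6 (adjusted p = 0.0015, limma) and -0.76 for Cdk4 (adjusted p = 4.7e-05, limma). Per kilobase of exon, Cdk4 supplied 95.4% to 97.8% of the summed kinase level as time point means, so the sum followed Cdk4. The window at the Cdk4 start is shown because it holds CACGTG 4 times.
Cdk4, chr10:127063285-127063584, plus strand: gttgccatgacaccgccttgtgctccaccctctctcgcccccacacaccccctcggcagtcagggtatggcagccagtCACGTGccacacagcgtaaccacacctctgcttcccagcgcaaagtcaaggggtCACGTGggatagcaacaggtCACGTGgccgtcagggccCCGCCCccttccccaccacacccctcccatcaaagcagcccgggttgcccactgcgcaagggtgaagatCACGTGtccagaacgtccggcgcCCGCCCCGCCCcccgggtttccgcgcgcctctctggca
Those matches begin at positions -172, -118, -98 and -11, and 8 windows of the annotation (0.0244%) hold at least 4 of them. CACGTG is the letter sequence bound by MYC with MAX and by other factors of the basic helix-loop-helix type. Myc itself, a member of the G1/S list below, had mean levels of 9.56 ± 0.24, 10.36 ± 0.15, 11.11 ± 0.57 and 10.19 ± 0.04 (SD, n = 3) in the order of the time points.

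The Cip/Kip genes of the set, Cdkn1a and Cdkn1b, spanned less than 1 log2 unit over the whole culture and did not pass the threshold. Cdkn1a (chr17:29090976-29100727, plus strand), a classical target of p53, was at 13.33, 13.28 and 13.42 at D7 and at 13.46, 13.49 and 13.41 at D8. At D10 it was at 13.82, 13.51 and 13.56 and at D28 at 13.05, 13.09 and 13.24, the lowest of the time points. The difference between D28 and D10 was -0.50 (standard error 0.11, limma adjusted p = 0.0012), and that between D28 and D7 was -0.22 with an adjusted p of 0.14 in limma. Cdkn1b (chr6:134920401-134925513, plus strand), whose product p27 accumulates in resting cells, was at 10.11, 10.02 and 10.01 at D7 and at 9.52, 9.61 and 9.60 at D8. It was at 9.78, 9.68 and 9.52 at D10 and back at 10.19, 10.26 and 10.03 at D28. By the adjusted p alone it was lower at D8 than at D7 (log2 fold change -0.47, adjusted p = 0.0043, limma) and higher at D28 than at D10 (0.50, adjusted p = 7.3e-04, limma). Over the 12 libraries the levels of Cdkn1b and Cdk4 had a Pearson correlation of -0.94, which is a description of libraries that share 4 time points. Per kilobase, Cdkn1a made up 90.9% to 95.2% of the summed level of the pair as time point means.

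The upstream of the Cdkn1a windows is printed because it holds a match to the p53 element, by name, that begins at position -73. The element was searched as a pair of 10-letter parts with a spacer of at most 13 bases, and it is present in 24 of all windows (0.0731%). In this match the parts are apart and do not adjoin, and a stricter pattern was not searched. None of the 9 motifs above was in this window, so it has no capitals.
Cdkn1a, chr17:29090729-29091028, plus strand: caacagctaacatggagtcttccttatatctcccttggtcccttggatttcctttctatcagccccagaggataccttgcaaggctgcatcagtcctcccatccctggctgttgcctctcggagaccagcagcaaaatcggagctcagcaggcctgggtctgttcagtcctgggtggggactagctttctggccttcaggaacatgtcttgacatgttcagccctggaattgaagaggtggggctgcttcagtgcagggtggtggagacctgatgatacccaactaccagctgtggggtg

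The INK4 genes of the set, Cdkn2a, Cdkn2b and Cdkn2c, had their highest levels at D28. All 3 rose past the threshold from D10 to D28, where 13.8% of tested genes were past it in that direction, and the change of Cdkn2a was the largest of these. Cdkn2a (chr4:89274471-89294653, minus strand) was at 5.74, 5.01 and 6.66 in the D7 libraries and at 7.04, 6.24 and 5.62 at D8. Its D10 levels were 6.92, 6.61 and 6.91, and its D28 levels were 10.34, 10.91 and 10.69. Every D28 library was at least 3.30 log2 units above every other library, and the earlier time points overlapped. At D28 against D7 Cdkn2a rose by 4.84 (standard error 0.37, limma adjusted p = 7.9e-08), a level 28.7-fold higher, which ranked 69 from the top among the 17674 genes tested. From D10 to D28 the rise was 3.83 (adjusted p = 4.2e-07, limma), or 14.2-fold.

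Before D28 the call for Cdkn2a was not stable. The difference of D10 from D7 was 1.01 (standard error 0.37, limma adjusted p = 0.038) with overlapping libraries, since the third D7 library at 6.66 was above the second D10 library at 6.61. It lost the threshold without the first or second D7 library, without the first D10 library, without the third D10 library and without the third D28 library, with a log2 fold change of 0.61 to 1.44 over all libraries left out in turn and adjusted p values up to 0.18 in limma, and it was also lost under 6 of the 9 other settings. The D7 values rest on few reads, at least 48, 34 and 77 when the rank of the value within its library, ties counted once, is read as a count, with exact 95% Poisson intervals of 35.4 to 63.6, 23.5 to 47.5 and 60.8 to 96.2. Such intervals hold for counting error alone, as no molecular identifiers are named for these reads. The gene total joins the Ink4a and the Arf transcript, which start at 89282192 and 89294653 and share their downstream exons in different reading frames, and the deposited values do not separate them.

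Cdkn2b (chr4:89306299-89311039, minus strand), which encodes p15 and is known as a TGF-beta responsive inhibitor, lies 11645 bases from Cdkn2a. It was at 9.24, 8.96 and 9.74 at D7 and at 9.57, 9.31 and 8.96 at D8. The D10 libraries were at 10.19, 9.86 and 9.89, above all of D7 and D8, and the D28 libraries at 11.25, 11.65 and 11.50 were above all of D10. Cdkn2b rose by 2.15 at D28 against D7 (standard error 0.19, limma adjusted p = 3.8e-07), to a level 4.44-fold higher, and by 1.49 from D10 to D28 (adjusted p = 8.4e-06, limma). The earlier difference, 0.66 at D10 against D7, passed by the adjusted p of 0.010 in limma and not by the fold.

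The pair at this locus was alike over the libraries, with a Pearson correlation of 0.98 between Cdkn2a and Cdkn2b over 12 libraries that share 4 time points. Their sizes of change differed, and Cdkn2a minus Cdkn2b was -3.51 ± 0.43 log2 units at D7 and -0.82 ± 0.08 at D28 (SD, n = 3). In the D28 libraries it was -0.91, -0.74 and -0.81, whereas in the other libraries it lay between -3.95 and -2.53. Of the neighbours on the chromosome, Mtap (chr4:89137122-89181081), the methylthioadenosine phosphorylase gene, was at 9.85 ± 0.07 at D7 and 10.15 ± 0.10 at D28, and Dmrta1 (chr4:89679436-89694772) was at 6.70 ± 0.18 at D7 and 4.39 ± 0.59 at D28 (SD, n = 3).

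Cdkn2c (chr4:109660876-109667189, minus strand), the p18 gene, was lowest at D10, like Ccnd3, and highest at D28. Its values were 8.96, 8.55 and 9.11 at D7 and 8.23, 8.20 and 8.24 at D8. The D10 libraries were at 7.19, 8.02 and 7.88 and those of D28 at 9.45, 9.76 and 9.74. The time points did not overlap. Cdkn2c fell by 1.18 log2 units from D7 to D10 (standard error 0.20, limma adjusted p = 1.8e-04) and rose by 1.96 from D10 to D28, a level 3.88-fold higher (adjusted p = 6.9e-07, limma). Without the first D10 library its difference from D7 was -0.93 (adjusted p = 4.8e-04, limma), just under the fold of the threshold. At D28 against D7 it was higher by 0.78 (adjusted p = 0.0054, limma), short of the fold, and against D8 it rose by 1.42 (adjusted p = 2.9e-05, limma).

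The pool of these 3 INK4 genes, Cdkn2d not included, changed in size and in make-up. Per kilobase of exon, Cdkn2a made up 7.08% ± 2.2 of the summed INK4 level at D7, 10.9% ± 3.3 on the next day, 10.6% ± 0.97 at D10 and 36.9% ± 1.4 at D28 (SD, n = 3). Cdkn2b was the main gene at each time point, with 67.2% at D7, 80.5% at D10 and 55.0% at D28, and the share of Cdkn2c was 25.7% at D7, 8.93% at D10 and 8.09% at D28. The summed INK4 level per kilobase was 0.627 ± 0.115 times that of Cdk4 plus Cdk6 at D7 and 0.379 ± 0.040, 0.585 ± 0.069 and 3.78 ± 0.37 times at the later time points (SD, n = 3). The D28 libraries had ratios of 3.37, 4.09 and 3.88, and the others ranged from 0.339 to 0.723, with no overlap. Its size rests on the exon lengths. Without them the summed log2 level of the INK4 genes was 9.82 to 10.56 at D7 and 12.11 to 12.55 at D28, and that of the kinases 11.90 to 12.19 and 11.73 to 11.84. The Cdkn2a level in the pool joins the Ink4a and the Arf transcript, so the part of Ink4a in the share and in the ratio is not known. The ratio compares transcripts, not the proteins that form the complexes, and it was not tested.

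**Figure D3:**
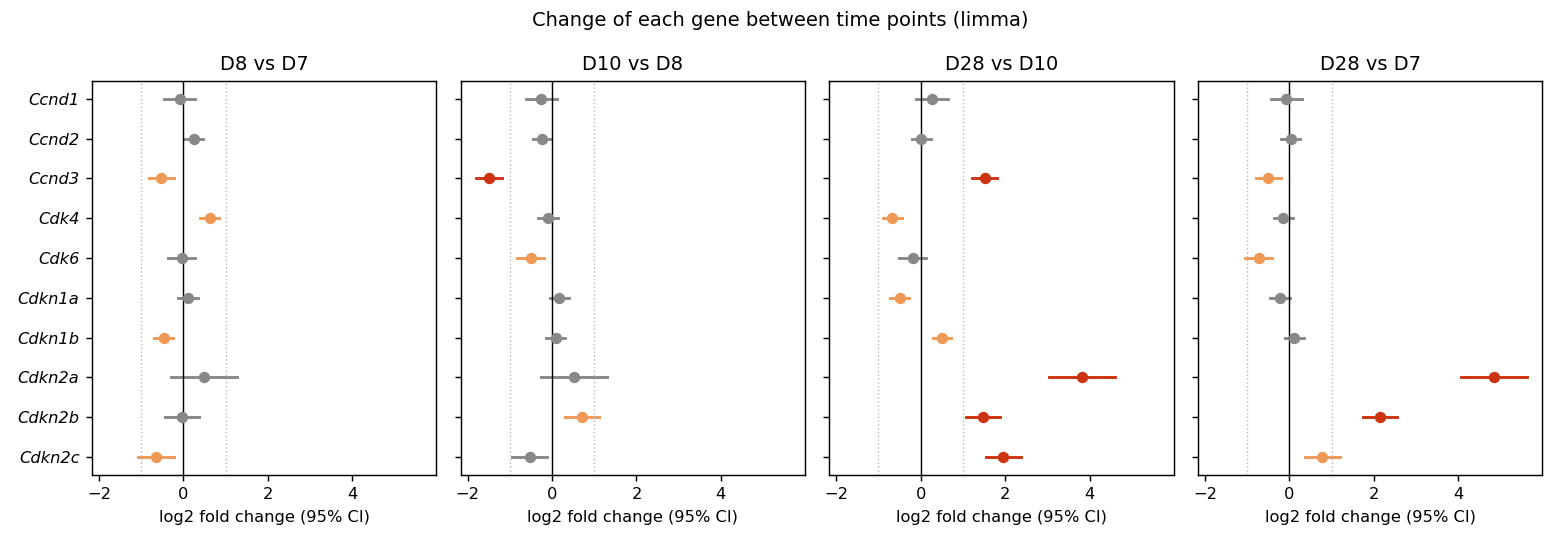
Log2 fold changes from limma (horizontal axis) with 95% confidence intervals for the 10 genes in 4 of the comparisons, red where past the threshold, orange where the adjusted p alone was passed and grey where neither was, with dotted lines at -1 and 1. The red points between D10 and D28 are Ccnd3 (1.51), Cdkn2a (3.83), Cdkn2b (1.49) and Cdkn2c (1.96), and at D28 against D7 they are Cdkn2a (4.84) and Cdkn2b (2.15).

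Markers of other cell types also moved, and their counts stand beside 17.3% of all tested genes past the threshold at D28 against D7 and 18.9% at D10 against D7. All 7 adipocyte markers rose at D28 against D7, with a median log2 fold change of 3.81, and their summed level was between 12.56 and 12.66 at D7 and between 15.84 and 16.31 at D28. Adipoq, the adiponectin gene, was between 6.65 and 7.67 at D7 and between 12.30 and 12.74 at D28. Of 10 macrophage markers 3 rose and 0 fell, and their summed level was 10.47, 12.55 and 10.53 in the D28 libraries beside 10.27 to 10.53 at D7. Ptprc, the pan-leukocyte gene, was at 0.94, 2.30 and 0 at D7, at 4.16, 0 and 0 at D10 and at 1.81, 4.12 and 2.82 at D28, with overlap and an adjusted p of 0.16 in limma for D28 against D7. The second D28 library, the one high in macrophage markers, also held the highest Cdkn2a, Cdkn2b and Cdkn2c values. Without it the log2 fold changes against D7 were 4.71 for Cdkn2a (adjusted p = 2.2e-06, limma), 2.06 for Cdkn2b (adjusted p = 7.9e-06, limma) and 0.72 for Cdkn2c (adjusted p = 0.027, limma). All 6 skeletal muscle markers fell at D28 against D7, with a summed level between 11.24 and 11.66 at D7 and between 5.73 and 6.78 at D28. Of 6 endothelial markers 0 rose and 2 fell, of 9 osteoblast markers 4 rose and 2 fell, and of 4 hypertrophic chondrocyte markers 1 rose and 1 fell. At D10 against D7, where Ccnd3 and Cdkn2c fell, 7 of 10 chondrocyte markers fell and 0 rose, with a median of -1.71. Other lists moved in the same comparison: 6 of 7 adipocyte markers fell (median -2.35, summed level 11.21 to 11.37 at D10), as did 5 of 6 skeletal muscle markers (median -3.09, 8.03 to 8.37). Among hypertrophic chondrocyte markers 3 of 4 fell (median -2.26), but their summed level was 17.47 to 17.76 at D7 and 17.68 to 18.38 at D10. The remaining marker, Col10a1, had means of 17.27 at D7 and 18.10 at D10 (adjusted p = 0.14, limma). Among endothelial markers 2 of 6 rose and 0 fell, with a median of 0.39. Their summed level, 5.73 to 6.27 at D7 and 8.64 to 9.01 at D10, rested mostly on Vwf, at a D10 mean of 8.65. The other endothelial markers had D10 means from 1.59 to 3.97. Of the macrophage markers 2 rose and 3 fell, and of the osteoblast markers 4 rose and 4 fell. The part of these cell types in the levels of the 10 genes was not tested.

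The other genes of the G1/S passage were taken as a list of 61, of which 59 were tested. At D28 against D7 none of them rose and 14 fell past the threshold, with a median of -0.39 beside -0.03 over all tested genes, so that 23.7% of the list was past it where 17.3% of all genes were. From D10 to D28, 2 rose and 16 fell (30.5% of the list beside 27.5% of all genes), with a median of -0.65 beside -0.10. At D10 against D7 5 rose and 5 fell (16.9% beside 18.9%), at D8 against D7 2 rose and 2 fell (6.78% beside 7.04%), and from D8 to D10 2 rose and 5 fell (11.9% beside 9.66%), shares near those of all genes. At D28 against D8 1 rose and 16 fell (28.8% beside 19.7%). The genes that fell at D28 against D7 included Ccne1, Ccne2 and Ccna2, cyclin genes that act after the D-type cyclins, and Cdc6, Cdt1, Mcm2 and Mcm5, which license replication origins.

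E2f7, a repressor that is itself an E2F target, had the largest fall of the list at D28 against D7, with a log2 fold change of -3.26 (adjusted p = 3.3e-06, limma), down to 2.82, 2.66 and 3.26 in the D28 libraries, where 3 reads stood at 1.50 to 1.54. Mki67, the gene of the proliferation marker Ki-67, changed by -2.78 (adjusted p = 3.5e-09, limma) and Ccna2, the S phase cyclin A2 gene, by -2.69 (adjusted p = 2.9e-07, limma). Ccne1 and Ccne2, the E-type cyclins that activate CDK2, changed by -1.77 and -1.63 (limma adjusted p = 2.1e-06 and 8.8e-05). Cdk2 was lower by the adjusted p alone, with -0.60 (adjusted p = 0.0013, limma).

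The retinoblastoma family and E2f1 moved little. Rb1 differed by 0.03 at D28 against D7 (adjusted p = 0.90, limma), Rbl1, the p107 gene, by -0.47 (adjusted p = 0.024, limma) and Rbl2, the p130 gene of resting cells, by 0.63 (adjusted p = 3.4e-04, limma). E2f1, the founding activator of the family, differed by -0.39 (adjusted p = 0.047, limma) and Trp53, which encodes p53, by -0.39 (adjusted p = 0.041, limma). None of these reached the fold of the threshold in that comparison.

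The remaining inhibitors of the families, Cdkn1c and Cdkn2d, were both lowest at D10. Cdkn1c, the p57 gene, a Cip/Kip gene of the growth plate, was at 10.79 ± 0.25 and 10.91 ± 0.14 at D7 and D8, at 8.54 ± 0.20 at D10 and at 11.69 ± 0.23 at D28 (SD, n = 3). It fell by 2.25 at D10 against D7 (standard error 0.15, limma adjusted p = 2.2e-08) and rose by 3.15 from D10 to D28 (adjusted p = 1.9e-10, limma), a dip at the time point where Ccnd3 and Cdkn2c were also lowest. Cdkn2d, the p19Ink4d gene and the fourth INK4 gene, was at 9.15 ± 0.22 at D7, its highest mean, and at 8.15 ± 0.13, 7.58 ± 0.21 and 8.24 ± 0.17 at the later time points (SD, n = 3). Against D7 it fell by 1.57 at D10 (adjusted p = 1.5e-06, limma), and at D28 the difference of -0.91 (adjusted p = 3.1e-04, limma) was short of the fold. From D10 to D28 it was higher by 0.66 (adjusted p = 0.0026, limma), also short of the fold.

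At the earlier time points other genes of the list stood first. From D7 to D8 Cdc6, which helps to load the replicative helicase, and Mcm5, a subunit of that helicase, rose by 1.38 (adjusted p = 5.3e-04, limma) and 1.08 (adjusted p = 0.0019, limma), while Cdkn3, a phosphatase of CDK complexes, fell by 1.11 (adjusted p = 0.024, limma) and Cdkn2d by 1.00 (adjusted p = 4.0e-04, limma). From D8 to D10 the largest rises were those of Mxd1, an antagonist of MYC, by 1.34 and the licensing gene Cdt1 by 1.10 (limma adjusted p = 4.9e-05 and 0.0039). Cdkn1c fell by 2.37 over those days (adjusted p = 9.3e-08, limma) and E2f7 by 1.70 (adjusted p = 0.0023, limma), and Mycn passed too at values of at most 2.92, so that no size is given. At D10 against D7 the largest rises were Cdt1 (2.01), Mxd1 (1.63) and Myc (1.55) and the largest falls Cdkn1c, Cdkn2d and Mki67 (-1.55), with limma adjusted p values of 2.2e-05 or less.

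After D10 more genes of the list fell than rose. From D10 to D28 Cdt1 changed by -3.53, Dbf4, the activator of the CDC7 kinase, by -2.18 and Cdc6 by -1.98 (limma adjusted p = 1.4e-08, 6.1e-08 and 2.8e-06), and the rises were those of Cdkn1c and Mxd4, another MYC antagonist, at 1.44 (adjusted p = 1.0e-07, limma). Against D8 the largest falls at D28 were E2f7 (-3.58), Cdc6 (-3.54) and Mcm5 (-2.70), and Mxd4 was the one that rose (1.06), with limma adjusted p values of 4.7e-06 or less. A separate list of 20 genes of dividing cells, Mki67 among them, gave 5 falls and 0 rises at D10 against D7 (25% of the list beside 18.9% of all genes) and 19 falls and 0 rises at D28 against D7 (95% beside 17.3%), where its median was -2.43. The exception was Rrm2, a ribonucleotide reductase subunit gene, which was higher by 0.36 at D28 (adjusted p = 0.036, limma), short of the fold.

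**Figure D4:**
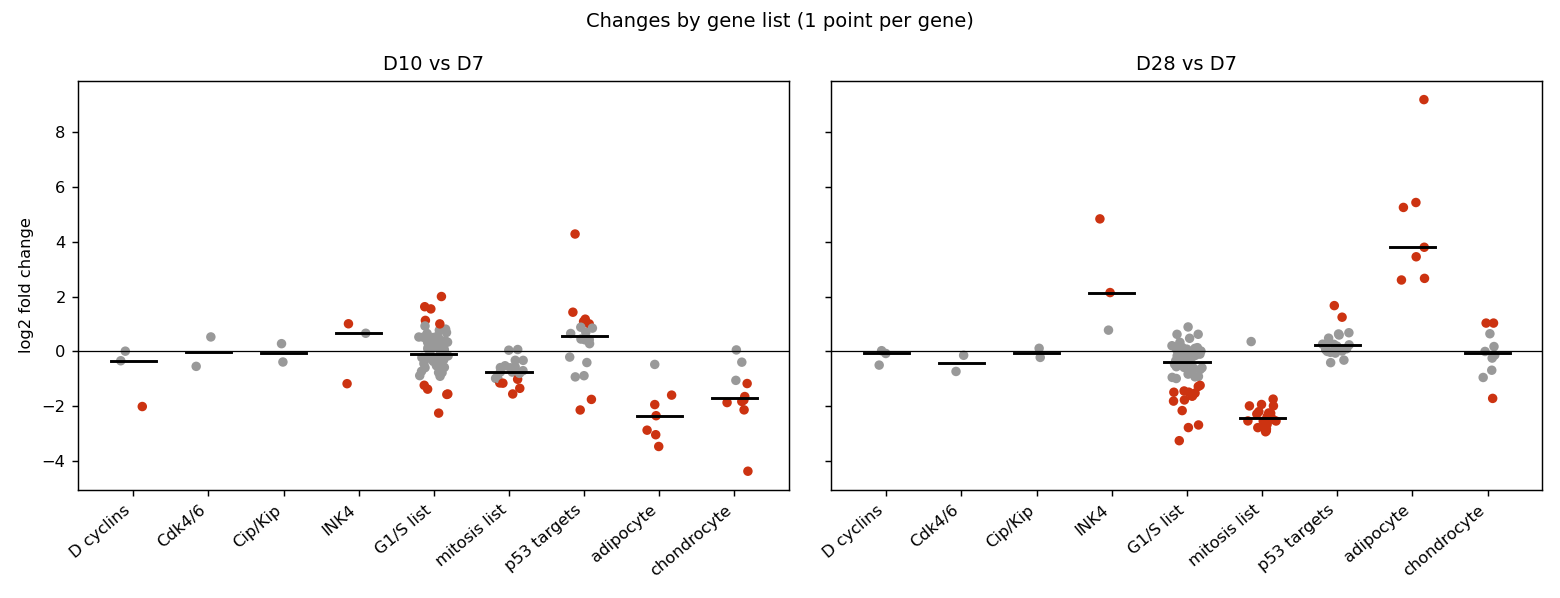
Log2 fold changes (vertical axis) of single genes, 1 point each, by gene list for D10 against D7 (left) and D28 against D7 (right), red where past the threshold and grey where not, with a black bar at the median. At D28 the 3 INK4 genes of the set lie above 0 with Cdkn2a at 4.84, the list of dividing cells has a median of -2.43, and the adipocyte markers have a median of 3.81.

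The genes whose levels followed a member most closely over the 12 libraries were taken from 12180 genes with a mean log2 value of at least 5, by Pearson correlation, as a description only, since the libraries share 4 time points. For Ccnd3 they were Pth1r, the parathyroid hormone receptor gene of the growth plate (0.99), Scarb1 (0.98) and the cartilage matrix gene Matn3 (0.98). For Cdkn2a they were Pdlim1, Cdkn2b and Foxred2 (0.98 each), and for Cdkn2b they included Baiap2 and Cdkn2a (0.98 each). Cdkn2c was followed by Tgfb3 (0.99), Adamts9 (0.98) and Slc25a1 (0.98). Between members, the correlation of Ccnd3 was 0.70 with Cdkn2c and 0.01 with Cdkn2a.

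Of the 10 genes, 6 overlap a gene on the opposite strand in the annotation, Ccnd1, Ccnd2, Ccnd3, Cdk4, Cdk6 and Cdkn1a. Overlapping genes with values in the deposited table were LTO1 for Ccnd1, 9330179D12Rik for Ccnd2, Bysl for Ccnd3 and Tspan31 for Cdk4. Those of Cdk6 and Cdkn1a were not listed there, nor was Gm43126, which also overlaps Ccnd2. The library kits mark the strand, but the strand setting of the counting is not given in the sources used here, so reads of the overlapping ends could have been shared. Bysl was at 9.20, 9.06 and 9.23 at D7 and at 9.72, 9.45 and 9.50 at D10, above its D7 values while Ccnd3 was at its lowest. Tspan31 was between 10.36 and 10.62 at D7, between 10.62 and 10.76 at D8, between 9.86 and 10.34 at D10 and between 10.45 and 10.56 at D28, so it was lowest at D10 while Cdk4 was still high.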

How the data were processed

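RNA was measured by sequencing in 12 pellet libraries, with 3 replicates at D7, at D8, at D10 and also at D28, and groups and replicate numbers were taken from the sample titles. The deposited unit is log2: the authors trimmed reads with Trimmomatic 0.36, aligned them with HISAT2, annotated them with Cufflinks, counted them with HTSeq, equalized the counts between libraries, added 1 and took the log2 (tools and GRCm38 per the submitters' processing notes; the study's methods name hg38, while the genes listed are those of mouse). Such values keep no library totals, so depth is known only through the lowest levels and no count model was used.

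A gene was kept if 3 or more libraries had it at a log2 value of 1 or higher, and was then tested with limma 3.58.1 in R 4.3.3 (a variance prior that follows the mean, residual degrees of freedom 8, two-sided p, Benjamini-Hochberg adjustment over 17674 genes, 6 comparisons, no covariate). Of the 28244 genes listed, 7935 were at 0 everywhere. The fit was tested on simulated data. Positions and exon lengths come from GENCODE M21 on GRCm38, and promoters from RefSeq. Tables and plots were made with Python 3.11.15, pandas 2.3.3 and matplotlib 3.10.9.

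The 10 genes and the gene lists were chosen with earlier results of these data known, so no list was tested as a set. Named were the 10 genes in every comparison, the 3 largest rises and falls past the threshold of the G1/S list per comparison, the retinoblastoma family, Cdk2, Ccne1, Ccne2, E2f1, Cdkn1c, Cdkn2d and Trp53, and the 3 genes most correlated with each of the 10 that was past the threshold, of which 1 gene is not reported here. Other genes of lists were named after their values were seen. The alternatives covered the filter, the scaling, the pseudocount, the variance prior, the libraries in the fit, the study's own rule, a replicate block, the fold threshold and each library left out in turn. Sequencing batches and dates are not given in the sources used here.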

Additional observations from a re-analysis of the deposited data

How the results depend on the processing

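For the 10 genes, 60 changes were recomputed under 9 other settings and with each of the 12 libraries left out in turn, 1260 values in all, and 11 of the 13 calls were kept under every one of them. The exceptions were Cdkn2a at D10 against D7, lost in 11 values, and Cdkn2c at D10 against D7, lost without the first D10 library. Cdkn2a had an adjusted p in limma of 0.055 without a filter, 0.052 with median-of-ratios scaling (log2 fold change 0.94), 0.051 with a pseudocount of 16 (0.82), 0.092 without the trend in the prior and 0.11 with only the time points compared, against 0.038 as reported, and the cause was not tested.

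With the adjusted p alone, a rule that drops the fold, the genes of the set numbered 4, 3, 8, 7, 5 and 7 for D8 against D7, D10 against D8, D10 against D7, D28 against D10, D28 against D7 and D28 against D8, and those of the G1/S list 19, 26, 33, 42, 33 and 40 of 59 in the same order, beside 21.0%, 28.8%, 41.2%, 52.4%, 37.3% and 41.3% of all tested genes. With a pseudocount of 16 the G1/S count at D8 against D7 was 2 in place of 4, and with libraries left out it ranged from 1 to 5. The set's count at D10 against D7 ranged from 1 to 3, being 1 without the first D10 library, where 17.1% of all tested genes were past the threshold.

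Signs reversed only for changes near 0 that were not called. Ccnd2 at D10 against D7 was -0.063 with median-of-ratios scaling and -0.051 to 0.079 with libraries left out. With libraries left out, the ranges at D8 against D7 were -0.16 to 0.10 for Cdk6 and -0.21 to 0.18 for Cdkn2b, and at D28 they were -0.051 to 0.083 for Ccnd2 against D10, -0.025 to 0.094 for Ccnd2 against D7, -0.17 to 0.037 for Ccnd1 against D7, -0.077 to 0.13 for Ccnd1 against D8 and -0.042 to 0.14 for Ccnd3 against D8. With median-of-ratios scaling the median change of all genes lay between -0.02 and 0.02, beside -0.10 to 0.05 in the reported fit.

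No pairing of the libraries by replicate number was detected. The 18 same-numbered pairs had correlations of deviations from -0.18 to 0.27, with 2 over 0.1, and 3 of 12 libraries correlated best with their own number. With 3 libraries per time point, such correlations cannot exclude a shared origin. With the replicate block, 3 of the 10 genes were past the threshold at D10 against D7, as without it, and the count over all genes went from 3340 to 3326.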

Other observations

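Targets of p53, the factor that also drives Cdkn1a, were counted in each comparison. Of 20 such genes, Cdkn1a not included, 6 rose and 2 fell at D10 against D7, with a median log2 fold change of 0.55 beside 0.05 over all tested genes, so that 40% of the list was past the threshold beside 18.9% of all genes. The summed level of the list was highest in the first D10 library, at 15.69 beside 15.33 and 15.36 in the others. Without that library, an alternative chosen after seeing the data, 5 rose and 2 fell with a median of 0.48, where 17.1% of all genes were past the threshold. Zmat3 was then at 0.85 (adjusted p = 1.4e-04, limma), under the fold, and Gdf15 was at 3.88. Gdf15, a stress-induced cytokine gene, was at 8.60, 8.15 and 8.98 at D7, 13.68, 12.24 and 12.66 at D10 and 9.29, 9.67 and 10.52 at D28, and rose by 4.29 at D10 (adjusted p = 8.9e-08, limma). The pro-apoptotic gene Bax rose by 1.06 (adjusted p = 3.8e-06, limma), whereas Sesn1, a sestrin gene, had a log2 fold change of -2.14 (adjusted p = 2.2e-09, limma). At D28 against D7, where Cdkn2a and Cdkn2b were higher, 2 of the 20 genes rose (10% beside 17.3%), Sesn1 by 1.67 (adjusted p = 2.1e-08, limma) and Gdf15 by 1.25 (adjusted p = 0.0069, limma), and 0 fell. The other counts were 2 rises and 3 falls at D8 against D7 (25% beside 7.04%), 3 and 0 from D8 to D10 (15% beside 9.66%), 3 and 3 from D10 to D28 (30% beside 27.5%) and 4 and 0 at D28 against D8 (20% beside 19.7%).

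Genes known as inputs to the D-type cyclin and INK4 genes, 29 in number, gave 7 rises and 0 falls at D10 against D7, with a median of 0.31 beside 0.05 over all tested genes (24.1% of the list past the threshold beside 18.9% of all genes). Without the first D10 library the list gave 6 rises and 1 fall with a median of 0.16, where 17.1% of all genes were past the threshold. The rises with all libraries included the ERK-responsive factors Etv4 (3.39), Etv5 (2.24) and Egr1 (1.96), with limma adjusted p values of 9.0e-07 or less. From D10 to D28, 2 rose and 9 fell (37.9% beside 27.5%). At D28 against D7, 3 rose and 3 fell (20.7% beside 17.3%): among the Polycomb genes, whose products are known to silence the Cdkn2a locus, Ezh2 had a log2 fold change of -1.28 (adjusted p = 2.7e-05, limma) and Cbx7 one of 1.52 (adjusted p = 1.7e-05, limma), while the others of the list did not reach the fold, Bmi1 at 0.94 (adjusted p = 3.8e-04, limma) and Cbx8 at 0.29 (adjusted p = 0.15, limma). These genes were named after their values were seen.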
